A study of Mus musculus with 41 samples.

Results

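The castrated time course of thymic epithelial cells (TEC) consists of 9 of the 41 arrays of the series, 3 each at day 4, day 7 and day 20 after surgical castration. The arrays were chosen by their source label alone. All 9 came from male C57Bl/6 mice of 9 to 12 months, for which the labels name no transgene or mutation. Sham-castrated males of the same strain and age gave 3 TEC arrays at each of the same days. These 9 arrays show which differences between the days also occur without castration. TEC were sorted from the digested thymus by flow cytometry as CD45- EpCAM+ cells, and their RNA was hybridised to Illumina arrays. The comparisons ask how the transcripts of TEC change during the transient regrowth of the thymus that follows castration, from day 4 to day 7 and from day 7 to day 20. Whether the 3 arrays of a group stem from different animals is not given in the labels. The p-values therefore reflect array-to-array spread, which may be technical. The number of arrays limits the precision.

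TEC form the scaffold in which T cells develop. Cortical TEC support the early steps of T cell development and positive selection. Medullary TEC display antigens of other tissues, many of them under control of the transcription regulator Aire, and delete self-reactive T cells. Mature medullary TEC can go on to cornified, tuft-like and neuroendocrine-like forms. Removal of the testes withdraws most circulating androgen, to which TEC respond directly, and the shrunken thymus of older males then enlarges for a time.

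Values are the deposited log2 intensities, differences are log2 values ± SE from 1 limma fit over all 24 TEC arrays, and a gene is called higher or lower where its Benjamini-Hochberg adjusted p over the 8277 genes tested is under 0.05. The label of the cells was checked against markers. Krt8, a keratin of simple epithelium, lay between 13.36 and 13.65 on the 9 castrated arrays, and Krt14, a keratin of basal epithelium, between 14.18 and 14.36, near the top of a range that ended at 14.67. Aire lay between 11.78 and 13.02. Foxn1, the transcription factor that defines the TEC lineage, did not exceed 5.86 on any castrated or sham array and was below the filter on dim genes at 6.68. The genes of the 2 sorting antigens, Epcam and Ptprc (CD45), were not analysed here.

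Some castrated arrays stood apart from the others of their group. On the second principal component, which held 20.4% of the variance, castrated day 4 arrays 2 and 3 lay at -37.1 and -44.6 and castrated day 7 array 3 at -20.1, while castrated day 4 array 1 and day 7 arrays 1 and 2 lay between 0.235 and 6.76. Castrated day 4 array 1 correlated with arrays 2 and 3 of its group at 0.924 and 0.911, against 0.983 between arrays 2 and 3. Sham day 4 array 3 stood apart by its markers of other cells, where the endothelial average reached 8.91, against 6.52 and 6.47 on sham day 4 arrays 1 and 2. The 3 castrated day 20 arrays correlated with each other at 0.988 to 0.993. On the first component, which held 37.8%, the castrated day 20 arrays lay at 41.3 to 47.7 and the sham day 20 arrays at 50.4 to 55.2, and no array of another day exceeded 1.57. Every day 20 array, castrated or sham, thus stood apart from every array of days 4 and 7, and the labels name no array batch. Day 20 and any processing step particular to the day 20 arrays therefore cannot be told apart, in castrated or in sham TEC. This holds for the changes that both share as well.

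**Figure D1:**
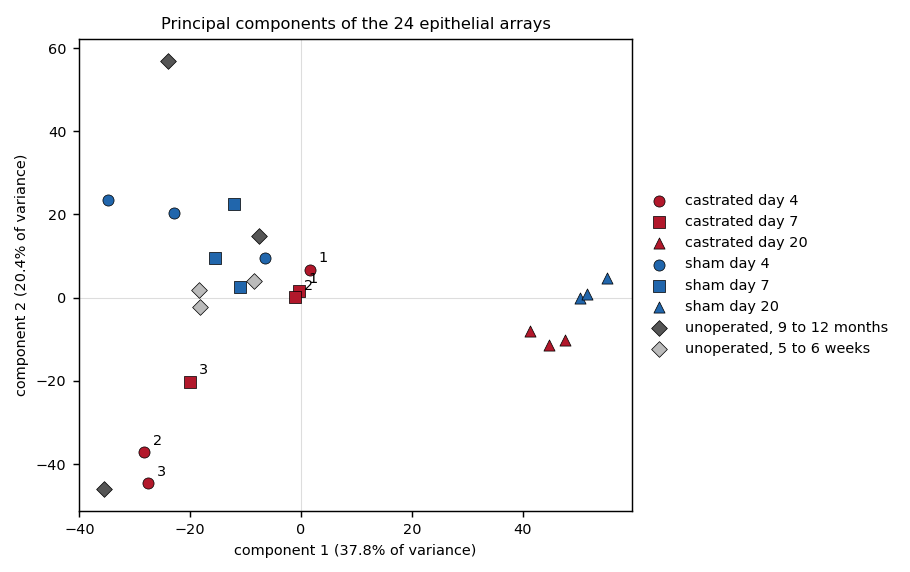
Positions of the 24 epithelial arrays on the first 2 principal components of 8277 genes, with colour for castrated, sham or unoperated and shape for the day. Numbers mark the castrated arrays of days 4 and 7. The 6 day 20 arrays lie at 41.3 to 55.2 on component 1, and castrated day 4 arrays 2 and 3 and day 7 array 3 lie at -44.6 to -20.1 on component 2.

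Between day 7 and day 4 after castration, 0 of 8277 genes passed the test (0% called), and sham TEC gave 0 over the same interval. At an unadjusted p under 0.05 there were 616 genes in castrated TEC (7.44%), and the smallest adjusted p was 0.528. The test of whether the interval differed between castrated and sham TEC gave 0 genes too, with 601 at an unadjusted p under 0.05. The median size of the castrated difference was 0.18, and its 95% confidence interval reached a median of 0.47 to either side. Without castrated day 4 array 1 the fit called 208 genes, 176 higher and 32 lower at day 7, and without any other single array it called 0. Array weights took that array at 0.204 and castrated day 7 array 3 at 0.364 against 4.24 for day 7 array 2. With them the fit called 2942 genes, which held all 208. Of the 2942, 592 had an unadjusted p under 0.05 without weights. Both settings remove or reduce the part of castrated day 4 array 1, so the overlap is not independent support.

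None of the 5 genes of smallest unadjusted p passed the test. S100a16, a calcium-binding protein of epithelia, was the first of them, at 9.78, 9.68 and 9.66 on day 7 arrays against 9.14, 8.80 and 8.84 on day 4 arrays of castrated mice. Its difference of 0.78 ± 0.15 (95% interval 0.46 to 1.10, adjusted p = 0.528) stood beside 0.01 ± 0.15 in sham TEC. Pomc, the precursor of several peptide hormones, differed by 1.95 ± 0.47 (adjusted p = 0.668), with 7.36, 7.84 and 7.27 on day 7 arrays against 7.00, 5.06 and 4.56 on day 4 arrays. The day 4 arrays that stood apart carried the 2 low values. Arrb2, which encodes a beta-arrestin, differed by 0.99 ± 0.24, and the amylase gene Amy2a5 by -0.82 ± 0.18. Ralgps2, an exchange factor of small GTPases, differed by -0.72 ± 0.17 on its brightest probe. Of the castrated against sham intervals, the 5 of smallest p were those of Amy2a5, the kallikrein Klk4, Pcp4l1, the ATP synthase subunit Atp5c1 and the interferon-induced GTPase Tgtp1, and none passed. Klk4 differed over the interval by 0.49 ± 0.15 in castrated TEC and by -0.53 ± 0.15 in sham TEC.

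Between day 20 and day 7 after castration, 3036 genes were called (36.7% of those tested), 1135 higher (13.7%) and 1901 lower (23.0%), and 1015 of the 3036 changed at least 2-fold. Sham TEC of the same days gave 4062 calls (49.1%), 1627 higher (19.7%) and 2435 lower (29.4%). These shares of all genes are the background of each count over a gene list, whether or not a list is said to be near them. Of the genes higher in castrated TEC, 718 were also called higher in sham TEC, which is 63.3% of the castrated and 44.1% of the sham calls. Of those lower in castrated TEC, 1315 were also lower in sham TEC, or 69.2% of the castrated and 54% of the sham calls. Sham TEC called 63 of the castrated rises and 21 of the castrated falls in the opposite direction. For 255 rises and 503 falls of castrated TEC, neither was shown, since they were not called the same way in sham TEC and the intervals did not pass the test of a difference.

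That test, the interaction of surgery and interval, called 677 genes (8.18%), with 462 intervals more positive in castrated than in sham TEC (5.58%) and 215 more negative (2.60%). Of the 677, 99 rose in castrated TEC with no call in sham TEC, and 62 fell in castrated TEC with no call in sham TEC. The largest class, of 277 genes, fell in sham TEC with no call in castrated TEC, and 109 rose in sham TEC with no call in castrated TEC. The count was smaller without single arrays, at 301 without sham day 20 array 2, 320 without sham day 7 array 2, and 340 without castrated day 20 array 1 or without sham day 20 array 3. It was 410 without castrated day 20 array 3, 428 without castrated day 7 array 2 and 432 without castrated day 7 array 1. Of the 301 genes, 299 were among the 677. Over the whole span, castrated day 20 minus day 4 called 3767 genes (45.5%), 1385 higher (16.7%) and 2382 lower (28.8%), and 1461 without castrated day 4 arrays 2 and 3 and sham day 4 array 3. The test of a difference from sham TEC over this span called 2014 genes (24.3%), 1001 more positive (12.1%) and 1013 more negative (12.2%) in castrated TEC.

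**Figure D2:**
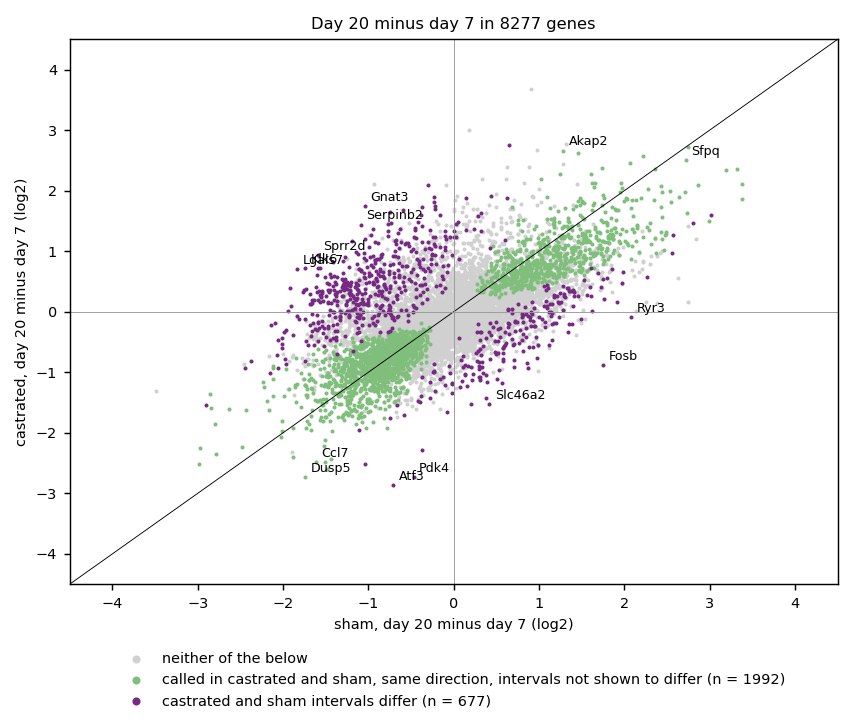
Day 20 minus day 7 (log2) in castrated TEC on the vertical axis and in sham TEC on the horizontal axis, with 1 point for each of 8277 genes and a line of equal change. Green points were called in the same direction in both with intervals not shown to differ, and purple points are the 677 genes whose intervals differed. Sfpq lies near the line, while Fosb, Slc46a2, Serpinb2 and Klk6 lie far from it.

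Immediate early genes, which cells switch on quickly and without new protein synthesis after a stimulus, fell in castrated TEC. Of 20 tested members, 13 fell and 1 rose between day 7 and day 20 after castration, with a median of -1.30 against -0.08 for all genes. In sham TEC 6 fell and 5 rose, with a median of 0.28. The castrated interval was lower than the sham interval by test for 9 members and higher for 0. Without castrated day 7 array 3 and sham day 4 array 3 these counts were 13 falls, 1 rise and 9 lower intervals among 19 members. This setting, used for later lists too, was chosen after seeing the data. List counts were not repeated without any sham array of days 7 and 20 or any castrated day 20 array. Averaged over the list, castrated arrays stood at 9.85 to 9.9998 at day 20 against 10.88 to 11.19 at day 7, and sham arrays at 10.96 to 10.98 against 10.81 to 11.08. The castrated day 20 arrays thus lay below every other array of the list, and the sham arrays of the 2 days overlapped.

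The promoters of 3 genes that fell are shown because each holds a serum response element, the CArG box through which serum response factor drives immediate early genes. They were chosen after their values were seen. The letters are the 150 bases before the transcription start on the gene's strand, from RefSeq on GRCm38.p6, and capitals mark the CArG boxes. Dusp5 (chr19:53528995-53529144, plus strand) has boxes starting 82 and 72 bases before the start, Egr2 (chr10:67537719-67537868, plus strand) has 1 at 72 bases and Zfp36 (chr7:28379229-28379378, minus strand) has 1 at 58 bases.
Dusp5: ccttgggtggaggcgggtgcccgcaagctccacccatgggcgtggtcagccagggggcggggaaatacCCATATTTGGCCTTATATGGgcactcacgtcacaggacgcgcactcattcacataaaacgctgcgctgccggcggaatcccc
Egr2: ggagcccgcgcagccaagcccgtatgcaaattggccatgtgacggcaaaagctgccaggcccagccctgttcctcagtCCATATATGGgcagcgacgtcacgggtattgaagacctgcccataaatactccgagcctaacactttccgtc
Zfp36: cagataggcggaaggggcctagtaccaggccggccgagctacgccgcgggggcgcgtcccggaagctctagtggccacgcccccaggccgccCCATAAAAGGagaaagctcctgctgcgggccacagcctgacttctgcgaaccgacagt
A CArG box (searched by its consensus, which reads the same on both strands) lay in 535 of 32851 RefSeq windows of 300 bases around a start, or 1.63%. Counted by gene, 1.81% of all genes with a window and 1.74% of the genes tested held one. RefSeq windows matched 16 of the 20 immediate early members, and 2 of these 16, Egr2 and Zfp36, held a box. Among the 10 largest falls, 8 genes matched and Dusp5 alone held one. A match is a description of these letters and not evidence of binding.

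Atf3, a stress-induced transcription factor on chromosome 1, fell most among the genes named for falling. Castrated TEC had 12.35, 12.73 and 13.08 at day 4, 12.90, 12.60 and 13.18 at day 7, and 9.89, 10.05 and 10.15 at day 20. Sham TEC had 12.41, 12.64 and 11.91 at day 4, 12.90, 12.65 and 12.55 at day 7, and 11.98, 11.99 and 12.01 at day 20. The castrated day 20 arrays were the lowest of all and overlapped no other group. The difference from day 7 to day 20 was -2.86 ± 0.22 in castrated TEC (7.28-fold lower, adjusted p = 2.97e-07) and -0.71 ± 0.22 in sham TEC (adjusted p = 0.0117), and the intervals differed by -2.15 ± 0.31 (adjusted p = 0.000596).

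Zfp36, which encodes a protein that destabilises cytokine mRNAs, had 12.46, 12.60 and 12.43 at day 20 against 13.74, 13.74 and 14.29 at day 7 in castrated TEC, and 13.72, 13.62 and 13.66 against 13.89, 13.83 and 14.13 in sham TEC. It fell by 1.43 ± 0.15 on the log2 scale in castrated TEC, the sham difference of -0.28 ± 0.15 did not pass, and the intervals differed by -1.14 ± 0.21 (adjusted p = 0.00302). Ier3 and Junb, an AP-1 subunit, fell by 1.49 ± 0.19 and 1.76 ± 0.19, and both intervals were lower than in sham TEC, by -1.09 (adjusted p = 0.0185) and -1.02 (adjusted p = 0.0269). Egr2, a zinc finger transcription factor, moved in opposite directions. It had 9.22, 9.25 and 8.80 at day 20 against 10.31, 10.09 and 10.41 at day 7 in castrated TEC, and 10.62, 10.34 and 10.30 against 9.94, 9.92 and 9.69 in sham TEC. The differences were -1.18 ± 0.22 and 0.57 ± 0.22, and both passed.

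Fosb, another AP-1 subunit, had the most negative interaction of all named genes. Castrated TEC had 10.82, 11.18 and 10.78 at day 20 against 11.78, 11.47 and 12.17 at day 7, and sham TEC had 12.66, 12.75 and 12.74 against 11.17, 10.74 and 10.97. It fell by 0.88 ± 0.27 in castrated TEC and rose by 1.76 ± 0.27 in sham TEC, an interval difference of -2.64 ± 0.38 (adjusted p = 0.000616). Egr1, a zinc finger factor (adjusted p = 0.982), and the phosphatase Dusp1 (adjusted p = 0.333) did not pass in castrated TEC. Ier2 alone of the list rose, by 1.27 ± 0.26, against 2.57 ± 0.26 in sham TEC. Socs3, the feedback inhibitor of cytokine signalling, fell by 1.65 ± 0.20 in castrated TEC against -0.08 ± 0.20 in sham TEC (interval difference -1.58, adjusted p = 0.00302). Nfkbiz, a nuclear regulator of NF-kB targets, followed the same pattern, with -1.52 ± 0.18 against 0.20 ± 0.18 (interval difference -1.72, adjusted p = 0.000597). Of 16 tested NF-kB targets, 6 fell and 1 rose in castrated TEC, against 7 and 0 in sham TEC, and 5 of the falls were shared.

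**Figure D3:**
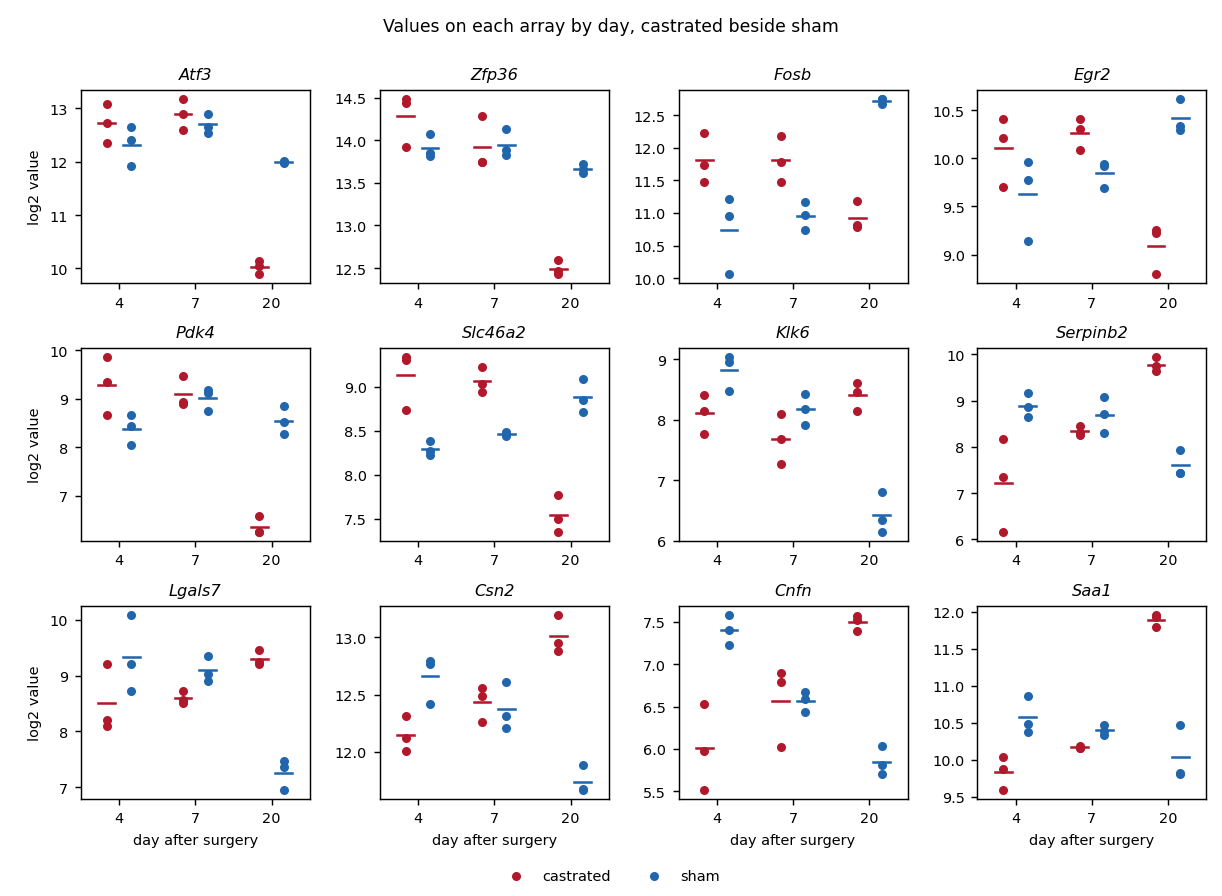
Log2 value on each array at days 4, 7 and 20 for 12 genes, castrated in red to the left of sham in blue, with bars for the group means (n = 3 arrays). Atf3, Zfp36, Pdk4 and Slc46a2 have their lowest arrays at castrated day 20, while the castrated day 20 arrays of Csn2, Saa1 and Serpinb2 lie above every other array of the gene.

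The other large falls of castrated TEC were mostly shared with sham TEC. Dusp5, a phosphatase that inactivates ERK, had 6.83, 6.98 and 6.95 at day 20 against 9.38, 9.11 and 10.46 at day 7 in castrated TEC, and 7.83, 8.16 and 7.79 against 9.84, 9.57 and 9.59 in sham TEC. It fell by 2.73 ± 0.38 and by 1.74 ± 0.38, and the intervals were not shown to differ (adjusted p = 0.272). Sham TEC also shared the falls of Rrad (-2.59), Tead2 (-2.49), the chemokine Ccl7 (-2.48), Rasl11a (-2.44) and Tnfrsf12a (-2.40), the receptor of TWEAK. Sham values for these genes were -1.89 to -1.44, and none of the 5 interactions passed. Chga, a protein of neuroendocrine granules, fell by 2.51 ± 0.35 against -2.98 ± 0.35 in sham TEC on its brightest probe, while another of its 3 probes read 0.52 in castrated TEC, and the mean of its probes did not pass (-1.21, adjusted p = 0.0892).

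Pdk4 and Pgf fell more in castrated than in sham TEC. Pdk4, the kinase that shuts pyruvate out of the mitochondrial oxidation cycle, had 6.25, 6.57 and 6.26 at day 20 against 8.88, 8.92 and 9.47 at day 7 in castrated TEC, and 8.52, 8.27 and 8.85 against 9.18, 9.12 and 8.74 in sham TEC. Its fall of 2.73 ± 0.30 stood against -0.47 ± 0.30, and the intervals differed by -2.27 ± 0.43 (adjusted p = 0.00342). The castrated day 20 values lie below the filter on dim genes, so the sizes of this fall and interval difference are uncertain. Pgf, the placental growth factor, fell by 2.51 ± 0.27 and by 1.04 ± 0.27 (interval difference -1.47, adjusted p = 0.0245). Slc46a2, a transporter first described in thymic stroma, had 7.35, 7.50 and 7.77 at day 20 against 8.94, 9.03 and 9.23 at day 7 in castrated TEC, and 8.72, 8.85 and 9.08 against 8.48, 8.44 and 8.48 in sham TEC. It fell by 1.53 ± 0.15 and rose by 0.42 ± 0.15, with the smallest adjusted p of all 8277 interactions, 0.000207. For the calcium channel Ryr3 the interaction of -2.18 ± 0.34 (adjusted p = 0.00106) came with a castrated difference of -0.09 ± 0.24 and a sham rise of 2.08 ± 0.24.

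Several of the largest rises of castrated TEC rested on low values on day 7 array 3. Rbbp7, a histone-binding chaperone, had 8.22, 4.85 and 4.74 at day 4, 8.04, 8.06 and 4.74 at day 7, and 10.64, 10.73 and 10.51 at day 20. Its sham values were 8.50 to 9.13 at day 4, 8.71 to 9.12 at day 7 and 9.64 to 10.11 at day 20. The 3 low values are those of the arrays that stood apart, and they lie below the filter on dim genes. The rise of 3.68 ± 0.93 (adjusted p = 0.00452) was 2.57 (adjusted p = 0.0401) without castrated day 7 array 3. Hnrnpa2b1, an RNA-binding protein, gave 3.01 ± 0.84, which was 1.995 without that array and no longer passed (adjusted p = 0.0715). Cbx3, a heterochromatin protein, gave 2.78 ± 0.68 and 2.01 (adjusted p = 0.0301) without it. Tsc22d1 gave 2.68 ± 1.03 (adjusted p = 0.0476), and 1.74 (adjusted p = 0.246) without it. The Tsc22d1 call was also lost without castrated day 7 array 2, any one castrated day 20 array or any one sham array, with no filter on dim genes, with no or a robust variance trend, and in the 9 castrated arrays alone (adjusted p = 0.0519 to 0.108). Sham TEC passed for none of these 4, with 0.18 to 1.32, and neither did the interactions.

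**Figure D4:**
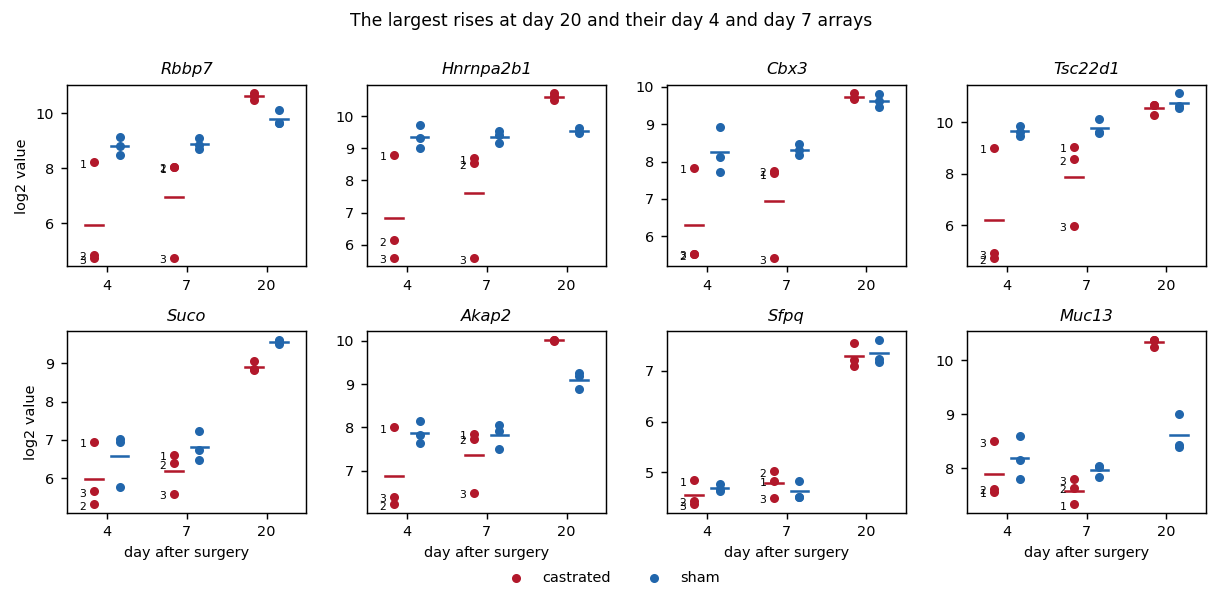
Log2 value on each array at days 4, 7 and 20 for 8 of the 10 largest rises, castrated in red to the left of sham in blue, with bars for the means (n = 3 arrays) and the numbers of the castrated arrays of days 4 and 7. In Rbbp7, Hnrnpa2b1, Cbx3 and Tsc22d1 castrated day 4 arrays 2 and 3 and day 7 array 3 lie far below array 1 of the same day, and in Sfpq the castrated and sham arrays of each day lie close together.

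The 6 other largest rises passed without that array too. Sfpq, a splicing factor of paraspeckles, had 7.10, 7.55 and 7.22 at day 20 against 4.83, 5.02 and 4.49 at day 7 in castrated TEC, and 7.18, 7.61 and 7.23 against 4.84, 4.52 and 4.52 in sham TEC. The call was shared. Ly75 (DEC-205), an endocytic receptor by which cortical TEC are recognised, had 7.20, 7.35 and 7.40 against 4.54, 4.98 and 4.73 in castrated TEC, and 6.62, 7.56 and 6.88 against 5.06, 4.86 and 4.496 in sham TEC, and this call was shared too. The day 7 arrays of both genes lay below the filter and within the range of Foxn1 (4.43 to 5.86), and the genes entered the test by their level in other groups. No detection call was used here, so the day 7 values are not shown to lie above background and the size of these rises is not given. Pmaip1 was likewise below the filter on every castrated and sham day 7 array, at 4.88 to 5.86. Suco was below it on the castrated day 7 arrays, at 5.59 to 6.61, so the size of its castrated rise is uncertain. Suco (2.72 in castrated and 2.75 in sham TEC), the kinase anchor Akap2 (2.66 and 1.28) and Pmaip1, which encodes the cell death protein NOXA, were called in both as well. Muc13, a membrane mucin, was not. It had 10.38, 10.38 and 10.25 at day 20 against 7.33, 7.63 and 7.79 at day 7 in castrated TEC, and 9.00, 8.40 and 8.43 against 8.01, 8.05 and 7.83 in sham TEC. Its rise of 2.76 ± 0.37 stood against 0.65 ± 0.37, and the intervals differed by 2.11 ± 0.53 (adjusted p = 0.019).

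Cornified epithelium genes, which build the hardened envelope of keratinocytes and mark late medullary TEC, differed in part between castrated and sham TEC. Of 16 tested members, 5 rose and 1 fell in castrated TEC (median 0.72), 1 rose and 7 fell in sham TEC (median -0.70), and 6 intervals were higher in castrated TEC by test and 0 lower. Without castrated day 7 array 3 and sham day 4 array 3, the counts were 4 rises, 1 fall and 5 higher intervals. Klk7, a protease of skin shedding, rose by 2.19 ± 0.41, with 9.47, 9.00 and 9.14 at day 20 against 6.80, 7.13 and 7.12 at day 7, and the sham difference was 0.33 ± 0.41, but the interaction did not pass (adjusted p = 0.0532). Sprr1b, an envelope precursor, rose by 1.23 ± 0.28 against -0.05 ± 0.28 (adjusted p of the interaction 0.0486). Grhl1, a transcription factor of epidermal differentiation, rose in castrated and sham TEC, by 0.96 and 0.92. Tgm1, the enzyme that cross-links the envelope, was the member that fell, by 1.65 ± 0.37.

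The 5 most positive interactions were those of Gnat3, Lgals7, Sprr2d, Serpinb2 and Klk6. Serpinb2, a protease inhibitor, had 8.17, 6.16 and 7.35 at day 4, 8.46, 8.31 and 8.26 at day 7 and 9.65, 9.74 and 9.95 at day 20 in castrated TEC, and 8.85, 8.66 and 9.17, then 8.29, 8.70 and 9.07, then 7.94, 7.44 and 7.44 in sham TEC. It rose by 1.44 ± 0.38 in castrated TEC and fell by 1.08 ± 0.38 in sham TEC (interval difference 2.52 ± 0.54, adjusted p = 0.00804). For the kallikrein Klk6 (2.46 ± 0.45), the lectin Lgals7 (2.54 ± 0.53) and the envelope precursor Sprr2d (2.53 ± 0.61) the sham fall passed and the castrated difference, 0.70 to 0.93, did not. A dimmer probe of Lgals7 read -0.08 in castrated TEC against -2.12 in sham TEC. Sprr2d lost its call without sham day 20 array 2 (2.32, adjusted p = 0.055). For Gnat3, the G protein of taste and tuft cells, the interaction of 2.78 ± 0.75 (adjusted p = 0.0282) was 2.26 (adjusted p = 0.0725) without castrated day 7 array 3. That call was also lost without any one of castrated day 20 arrays 1 and 3, sham day 7 arrays 1 and 2 and the 3 sham day 20 arrays.

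Tissue antigens that depend on Aire also differed between castrated and sham TEC. Of 19 tested members, 2 rose and 2 fell in castrated TEC (median 0.57), beside 13.7% higher and 23.0% lower over all genes. In sham TEC 0 rose and 7 fell (median -0.75), and 7 intervals were higher in castrated TEC by test and 0 lower. Without castrated day 7 array 3 and sham day 4 array 3, 2 rose, 1 fell and 6 intervals were higher among 18 members. Csn2, beta-casein, had 12.95, 12.88 and 13.20 at day 20 against 12.49, 12.56 and 12.26 at day 7 in castrated TEC, and 11.88, 11.67 and 11.67 against 12.21, 12.31 and 12.61 in sham TEC. It rose by 0.57 ± 0.18 and fell by 0.64 ± 0.18 (interval difference 1.21, adjusted p = 0.00706), and the castrated rise lost its call without castrated day 7 array 3 (0.49, adjusted p = 0.0784) and without castrated day 20 array 3 (0.48, adjusted p = 0.078). Ttr, the thyroid hormone carrier, rose by 2.09 ± 0.44 against -0.30 ± 0.44. Crp, C-reactive protein, fell by 1.42 ± 0.37. Csn3, kappa-casein, fell by 0.73 ± 0.27 on its brightest probe, its other probe had the opposite sign, and the call was lost without any one of the 6 castrated arrays of days 7 and 20.

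The regulator Aire itself had 12.89, 13.02 and 12.91 at day 20 against 12.11, 12.42 and 12.35 at day 7 in castrated TEC, and 11.90, 11.89 and 11.83 against 11.87, 12.07 and 11.78 in sham TEC. The castrated arrays of the 2 days did not overlap and the sham arrays did. It rose by 0.65 ± 0.21 (adjusted p = 0.0232) against -0.04 ± 0.21, but the intervals were not shown to differ (0.68 ± 0.30, adjusted p = 0.175). The call was lost without castrated day 7 array 1 (adjusted p = 0.0886) or castrated day 20 array 2 (adjusted p = 0.0733). These values are those of the brightest Aire probe. The next brightest read 0.48 in castrated and 0.42 in sham TEC, and the dimmest 1.62 and -0.29. Of 19 tested medullary genes, 2 rose and 2 fell in castrated TEC, beside 13.7% higher and 23.0% lower over all genes. In sham TEC 2 rose and 6 fell. Tnfrsf11b, the decoy receptor of RANKL, rose by 0.95 ± 0.25 against -0.22 ± 0.25 (adjusted p of the interaction 0.0498). Ltbr, the lymphotoxin beta receptor, and Relb, an NF-kB subunit of medullary development, fell by 1.45 and 0.75, and sham TEC shared both falls. The Relb call was lost without castrated day 7 array 3 (-0.57, adjusted p = 0.114) and without castrated day 20 array 1 or 2 (adjusted p = 0.0669 and 0.0645). Cd40, a receptor that drives medullary growth, stayed at 12.23 to 12.31 against 12.06 to 12.38 in castrated TEC and fell by 0.87 ± 0.14 in sham TEC (interval difference 0.94, adjusted p = 0.00849). Fezf2 (0.20), Ccl21a (0.22), Krt5 (0.07) and Krt14 (0.08) did not pass in castrated TEC.

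Acute-phase genes, which serve the first line of the response to injury, moved both ways. Of 12 tested members, 3 rose and 5 fell in castrated TEC, against 1 and 5 in sham TEC, with 5 intervals higher and 2 lower than in sham TEC. Saa1, serum amyloid A, had 11.93, 11.80 and 11.96 at day 20 against 10.16, 10.18 and 10.16 at day 7 in castrated TEC, and 10.47, 9.81 and 9.81 against 10.47, 10.34 and 10.38 in sham TEC. It rose by 1.73 ± 0.21 against -0.37 ± 0.21 (interval difference 2.09, adjusted p = 0.000596). Orm1, orosomucoid, rose by 0.97 ± 0.18 in castrated TEC and fell by 1.05 ± 0.18 in sham TEC. Lbp, which binds lipopolysaccharide, fell by 0.94 and by 0.64.

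Markers of leukocytes, which the CD45- gate was set to leave out, also differed in part between castrated and sham TEC. Of 9 tested myeloid markers, 2 rose and 0 fell in castrated TEC, 0 rose and 4 fell in sham TEC, and 3 intervals were higher in castrated TEC. Of 6 pan-leukocyte markers, 1 rose and 0 fell in castrated TEC, beside 13.7% higher over all genes. In sham TEC 0 rose and 3 fell, and 3 intervals were higher in castrated TEC. Averaged over the myeloid list, castrated arrays stood at 9.96 to 10.18 at day 20 against 9.47 to 9.58 at day 7, and sham arrays at 8.62 to 9.00 against 9.66 to 9.78. Averaged over the pan-leukocyte list, castrated arrays stood at 10.61 to 10.84 at day 20 against 10.06 to 10.58 at day 7, and sham arrays at 9.64 to 9.94 against 10.27 to 10.39. At day 4 the myeloid averages were 8.99 to 9.46 on castrated and 9.86 to 10.34 on sham arrays. The pan-leukocyte averages of day 4 were 9.65 to 10.37 and 10.54 to 10.92. For both lists the castrated day 20 arrays lay within the sham day 4 range. Lyz1, lysozyme, rose by 0.83 ± 0.24, a call lost without castrated day 20 array 2 (0.72, adjusted p = 0.0559). Laptm5, a lysosomal protein of blood cells, rose by 0.87 ± 0.15. Mpo, myeloperoxidase, rose by 0.57 ± 0.22 (adjusted p = 0.0444), a call that was lost, among other settings, without any one of the 6 castrated arrays of days 7 and 20 and with the mean of all its probes (0.12, adjusted p = 0.625). Of the macrophage genes of the list, Csf1r, Adgre1 and Mpeg1 were below the filter, at no more than 6.30 on any castrated or sham array. C1qa was below it too, with a highest value of 7.05 on these arrays. C1qb, a complement subunit of macrophages, was tested. It differed by -0.06 ± 0.31 in castrated TEC and fell by 1.83 ± 0.31 in sham TEC (interval difference 1.77, adjusted p = 0.0172). Of 5 B lineage markers 1 rose and 1 fell in castrated TEC, 0 rose and 3 fell in sham TEC, and 2 intervals were higher in castrated TEC. Averaged over this list, castrated arrays stood at 7.15 to 7.27 at day 20 against 7.11 to 7.39 at day 7, and sham arrays at 6.055 to 6.33 against 7.42 to 7.72. The rise of the coactivator Pou2af1 (1.47) was lost without castrated day 7 array 3 (1.30, adjusted p = 0.0601). Of 5 erythroid markers 0 passed in castrated TEC and all 5 fell in sham TEC (median -1.31), with 0 intervals called different. Averaged over the erythroid list, castrated arrays stood at 9.46 to 9.75 at day 20 against 9.23 to 9.90 at day 7, and sham arrays at 7.89 to 8.99 against 9.505 to 9.81. The part of such cells in the results above was not tested. Since the cells were measured in bulk, fewer cells of a type and less RNA per cell cannot be told apart.

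Tuft cell genes, of the chemosensory TEC, fell in sham TEC and in part in castrated TEC. Of 14 tested members, 1 rose and 6 fell in castrated TEC (median -0.72), all 6 falls were shared, and 13 fell in sham TEC (median -1.61). Alox5ap, of leukotriene synthesis, fell by 1.59 ± 0.34 against -2.84 ± 0.34, its partner enzyme Alox5 by 1.19 against -1.50, and the cytokine Il25 by 1.80 against -2.01. The kinase Dclk1 fell by 1.21 against -1.33 on its brightest probe, while its other probe read 0.34 in castrated TEC and the mean of both did not pass (-0.43, adjusted p = 0.145). The interval of Gnat3 was the 1 of 14 that differed by test. Of 14 neuroendocrine genes, 2 rose and 2 fell in castrated TEC, beside 13.7% higher and 23.0% lower over all genes. In sham TEC 7 fell. Chgb fell in castrated and sham TEC, by 1.15 and 1.32.

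Of 13 tested cortical genes, 1 rose (Ly75, above) and 3 fell, near the 23.0% of all genes called lower. Sham TEC shared all 4 calls. The tendon and cortical transcription factor Scx fell by 1.73 ± 0.28 against -1.09 ± 0.28. Psmb11, the thymoproteasome subunit (0.36 ± 0.54), and the chemokine Ccl25 (0.27 ± 0.26) did not pass in castrated TEC. Prss16, the thymus-specific serine protease, differed by 0.97 ± 0.57, which did not pass, and rose by 2.17 ± 0.57 in sham TEC, but the intervals were not shown to differ (adjusted p = 0.397). Of 14 thymic chemokines, 0 rose and 2 fell in castrated TEC, beside 13.7% higher and 23.0% lower over all genes. In sham TEC 2 rose and 2 fell. Those that fell in castrated TEC were Cxcl16 by 1.21 against -1.35 in sham TEC and Cxcl14 by 1.73 against -0.66.

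Of 23 tested growth factor pathway genes (FGF, EGF, IGF and BMP), 1 rose and 6 fell in castrated TEC, with falls near the 23.0% of all genes. In sham TEC 5 rose and 8 fell, and 3 castrated intervals were higher and 5 lower than in sham TEC. Igf2, insulin-like growth factor 2, had 10.44, 10.52 and 10.40 at day 20 against 8.73, 9.13 and 9.05 at day 7 in castrated TEC, and 9.01, 8.71 and 8.78 against 9.32, 9.28 and 9.15 in sham TEC. It rose by 1.48 ± 0.19 against -0.42 ± 0.19 (interval difference 1.90, adjusted p = 0.000596). Cdkn1c, an imprinted cell cycle inhibitor, rose by 1.14 ± 0.24 in castrated TEC and fell by 0.89 ± 0.24 in sham TEC (interval difference 2.03, adjusted p = 0.00183). Bmp7 fell by 1.45 in castrated and by 1.62 in sham TEC. Dusp6, an ERK phosphatase, fell by 1.35 ± 0.17 against -0.02 ± 0.17, and Id1, a BMP target, by 1.48 ± 0.16 against -0.42 ± 0.16, and both intervals differed (adjusted p = 0.00291 and 0.00745).

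Fgf21 is a hormone that TEC make and that protects the ageing thymus. It had 12.47, 12.63 and 12.46 at day 20 against 12.85, 12.79 and 12.72 at day 7 in castrated TEC, without overlap. Sham TEC had 11.36, 10.90 and 11.11 against 12.61, 12.65 and 12.68. The castrated difference of -0.26 ± 0.13 did not pass, sham TEC fell by 1.52 ± 0.13, and the intervals differed by 1.26 ± 0.19 (adjusted p = 0.000635). The receptors Fgfr2 and Egfr did the reverse on their brightest probes. Fgfr2 differed by 0.26 ± 0.14 in castrated TEC and rose by 1.61 ± 0.14 in sham TEC, and Egfr by 0.18 ± 0.14 and 1.09 ± 0.14, with interval differences of -1.35 and -0.90 that passed. Of the dimmer probes of each gene, 2 had a castrated difference of the other sign. Il7, the survival cytokine of thymocytes, differed by -0.48 ± 0.22 against 0.52 ± 0.22 (interval difference -0.997, adjusted p = 0.0486). Of 10 Notch pathway genes 0 rose and 4 fell in castrated TEC, beside 23.0% lower over all genes, while 4 rose and 1 fell in sham TEC and 2 intervals were lower in castrated TEC. The list median was 0.07 in castrated and 0.07 in sham TEC. The receptor Notch3 fell by 0.76 ± 0.22 and rose by 0.97 ± 0.22 in sham TEC (adjusted p of the interaction 0.00305), and the castrated fall missed the threshold without castrated day 7 array 3 (adjusted p = 0.057) or castrated day 20 array 1 (adjusted p = 0.0511). Its target Hey1 fell by 0.90 ± 0.23 against 0.17 ± 0.23. Of 12 Wnt pathway genes 0 rose and 2 fell in castrated TEC, Wnt4 by 0.94 and Kremen2 by 0.94, beside 23.0% lower over all genes. In sham TEC 4 rose and 2 fell.

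**Figure D5:**
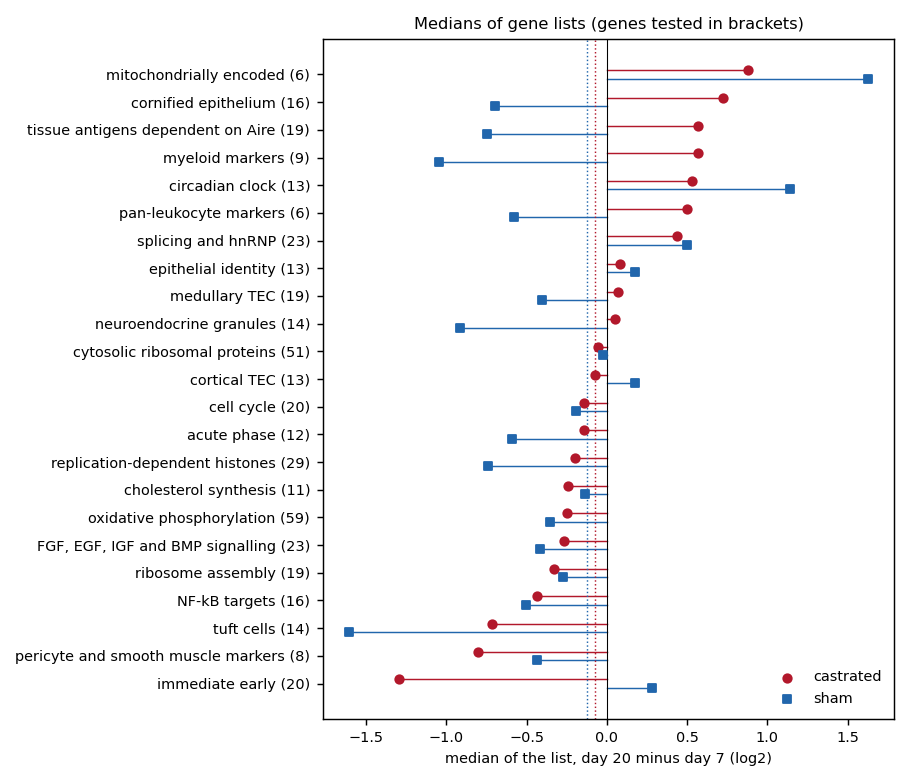
Median day 20 minus day 7 difference (log2) of 23 gene lists, castrated as red circles above sham as blue squares, with the number of genes tested in brackets and dotted lines at the medians of all 8277 genes. Immediate early genes have medians of -1.30 and 0.28, and cornified, Aire-dependent, myeloid and pan-leukocyte lists also have medians of opposite sign in castrated and sham TEC.

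Genes of oxidative phosphorylation fell in part in castrated and sham TEC. Of 59 nuclear genes of oxidative phosphorylation, 0 rose and 19 fell in castrated TEC, 2 rose and 29 fell in sham TEC and 16 falls were shared. The complex I subunits Ndufa11, Ndufs8, Ndufc1 and Ndufa12 fell by 0.65 to 0.85 in castrated TEC and by 0.56 to 0.89 in sham TEC. Of 6 transcripts encoded in the mitochondrion, 2 rose and 0 fell in castrated TEC, against 4 and 0 in sham TEC. ND4 rose by 0.83 ± 0.14 against 0.87 ± 0.14, while the rise of COX2 by 1.496 ± 0.48 was lost without castrated day 7 array 3 (1.29, adjusted p = 0.0804) or castrated day 20 array 1 (1.37, adjusted p = 0.0657). Of 51 cytosolic ribosomal proteins, 0 rose and 13 fell in castrated TEC, a share near the 23.0% of all genes that were called lower. In sham TEC 3 rose and 11 fell, and 9 falls were shared, with Rpl19 at -0.89 against -0.99. Of 19 ribosome assembly factors, 1 rose and 7 fell in castrated TEC, 4 rose and 5 fell in sham TEC, and Noc4l fell by 1.28 against -0.95.

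Cholesterol synthesis gave 0 rises and 4 falls among 11 genes in castrated TEC, against 1 and 4 in sham TEC, with Mvd at -1.47 against -1.59 and Fdps at -1.15 against -1.07 in sham TEC. Antioxidant genes gave 4 rises and 7 falls among 21 in castrated TEC, against 2 and 6 in sham TEC, with the haem oxygenase Hmox1 at -2.23 against -2.48 and the glutathione peroxidase Gpx2 at -1.12 against -1.65. Heat shock genes gave 1 rise and 5 falls among 20 in castrated TEC, again near the 23.0% of all genes, against 1 and 3 in sham TEC, with the collagen chaperone Serpinh1 at -1.24 against -0.68. Of 20 cell cycle genes, 0 rose and 5 fell in castrated TEC, also near that share, and 0 rose and 7 fell in sham TEC. The helicase subunit Mcm2 fell by 1.74 ± 0.24 against -1.35 ± 0.24 and the nucleotide reductase subunit Rrm2 by 0.997 against -1.11. Of the mitotic genes Cdk1 (0.26), Top2a (1.22) and Plk1 (0.46), 0 passed. Of 29 replication-dependent histones, 1 rose and 2 fell in castrated TEC, beside 13.7% higher and 23.0% lower over all genes. In sham TEC 1 rose and 18 fell, and 3 intervals were higher in castrated TEC.

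Of 13 tested clock genes, 4 rose and 1 fell in castrated TEC (median 0.53), and 9 rose and 1 fell in sham TEC (median 1.14), with all 4 castrated rises shared. Npas2 rose by 1.84 ± 0.39 against 1.45 ± 0.39, Clock by 0.97 ± 0.19 against 1.60 ± 0.19, and their output gene Dbp by 0.72 against 0.77. The repressor Per1, itself an immediate early gene, fell by 1.16 ± 0.29 in castrated TEC against 0.39 ± 0.29 in sham TEC (adjusted p of the interaction 0.0261). These values are those of its brightest probe. Its dimmer probes read -1.62 and -1.24 in castrated TEC against -0.31 and -0.67 in sham TEC. The labels give no time of day for the sorts. Of 23 splicing factor genes, 5 rose and 2 fell in castrated TEC, against 7 and 1 in sham TEC, and in castrated TEC 3 rose and 2 fell without castrated day 7 array 3 and sham day 4 array 3. The helicase Ddx5 rose by 1.82 ± 0.40 against -0.23 ± 0.40 (adjusted p of the interaction 0.0302). Luc7l3 rose by 0.75 and 0.85 on its brightest probe, but the mean of its probes did not pass in castrated TEC (0.61, adjusted p = 0.187). Cirbp, a cold-inducible RNA-binding protein, fell by 1.15 and 0.97.

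Of 8 pericyte and smooth muscle markers, 0 rose and 4 fell in castrated TEC and 1 rose and 4 fell in sham TEC, with desmin (Des) at -1.74 against -1.51 in sham TEC and Tagln at -1.31 against -0.75. Averaged over the list, castrated arrays stood at 8.15 to 8.31 at day 20 against 8.93 to 9.21 at day 7, without overlap. Sham arrays stood at 7.95 to 8.09 against 8.41 to 8.44, also without overlap. Of 9 endothelial markers 1 rose and 2 fell in castrated TEC, against 1 and 3 in sham TEC, and of 10 fibroblast markers 1 rose and 1 fell, against 0 and 3. Over all genes 13.7% were higher and 23.0% lower in castrated TEC. Of 7 thymocyte markers 0 passed in castrated TEC, and 1 rose and 1 fell in sham TEC. The endothelial average of castrated day 7 array 3 was 7.89 against 6.65 and 6.68 on the other day 7 arrays, and the call of the endothelial receptor Eng (-1.56) was lost without that array (-0.96, adjusted p = 0.0794).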

How the data were processed

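RNA of sorted TEC was measured on Illumina arrays, 24 of them in 8 groups. The authors deposited normalized log2 values, with the log base not stated and taken as 2, and limma is named without a version per the submitters' processing notes. Of 24671 probes, 20825 have 1 listed gene. The brightest probe stood for each of 12176 genes, and 8277 genes with a group mean above 6.678, the median of all TEC values, were tested. One limma (version 3.58.1, R 4.3.3) model of group means with a variance trend gave each interval and the difference between castrated and sham intervals, with 16 residual degrees of freedom and Benjamini-Hochberg adjustment. The fit was tested on simulated data. Named genes were the 10 largest changes each way that passed without overlap of arrays, the 5 largest interactions each way, up to 4 members of smallest p per list, fixed thymic genes, and the 5 smallest p where nothing passed. Members that are named without passing were chosen after their values were seen. The members, lists and rules were chosen with earlier results of these data known. Groups share array numbers. The deviations of same-numbered arrays correlated at 0.567, -0.436 and 0.564 for castrated days 7 and 4, and at 0.157, -0.00709 and 0.221 for castrated days 20 and 7, so the numbers were not taken as pairs in castrated TEC. For sham days 7 and 4 they were 0.188, 0.121 and 0.153, and the paired fit called 0 genes there as well. Alternatives covered the filter, probe choice, normalization, variance model, array weights, a replicate block and left-out arrays.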

Additional observations from a re-analysis of the deposited data

Results flagged for a closer look

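The day 20 minus day 7 interval differed between castrated and sham TEC by the interaction test of limma for 677 genes, and the day 20 minus day 4 interval for 2014 genes. Among the genes of largest size the castrated interval was higher for Gnat3 by 2.78, Lgals7 by 2.54, Sprr2d by 2.53, Serpinb2 by 2.52 and Klk6 by 2.46 on the log2 scale. The castrated minus sham difference of the intervals was -2.64 for Fosb, -2.27 for Pdk4, -2.18 for Ryr3, -2.15 for Atf3 and -1.94 for Slc46a2. The size for Pdk4 is uncertain, since its castrated day 20 values lay below the filter on dim genes.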

How the results depend on the processing

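With array weights the fit called 2942 genes for castrated day 7 minus day 4, 5318 for castrated day 20 minus day 7, 25 and 6138 for the same sham intervals, and 1899, 3516 and 4163 for the castrated minus sham differences of the day 7 minus day 4, day 20 minus day 7 and day 20 minus day 4 intervals. Without a filter on dim genes, and in a fit of the 18 castrated and sham arrays, sham day 7 minus day 4 gave 1 gene, and the 18 arrays gave 1197 differing day 20 minus day 7 intervals. Without castrated day 4 arrays 2 and 3 and sham day 4 array 3, castrated day 20 minus day 4 gave 1461 genes and its difference from sham 927, and 1565 and 968 when castrated day 7 array 3 was left out as well, a setting chosen after seeing the data. Without castrated day 7 array 3 and sham day 4 array 3, also chosen after seeing the data, 1 day 7 minus day 4 interval differed from sham. With the mean of all probes, the castrated day 20 minus day 7 difference was 0.13 for Cd74 and 0.15 for Hes6, of opposite sign to the brightest probe. Leaving out single arrays gave 0 to 208 genes for castrated day 7 minus day 4, 2235 to 3190 for day 20 minus day 7 and 2822 to 4039 for day 20 minus day 4. It gave 0 to 10, 3333 to 4235 and 3713 to 4546 for sham, and 0 to 0, 301 to 812 and 1441 to 2545 for the differences. With a replicate block the castrated counts were 0, 3165 and 3899, and the differing intervals 0, 789 and 2174. The causes were not tested. The 3 arrays a group limit what can be detected.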
